A study of Mus musculus with 24 samples.

Results

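The comparison was of Cyp1b1-null with wild-type liver at weaning, both from the vitamin A sufficient diet. It rests on the 5 arrays that the labels give this genotype, age and diet, of 24 in the series. The tested group was 2 arrays of male Cyp1b1-null mice at postnatal day 21 (PN21), each with RNA pooled from 2 livers. Its control was 3 arrays of male C57Bl/6J wild-type liver of the same age, all 3 carrying 1 RNA pool of 4 mice. Dams of both genotypes were changed at embryonic day 4.5 to a defined low-fat diet with vitamin A, which was kept up until the livers were taken. Neither the background strain of the null mice nor the deleted stretch of Cyp1b1 is stated in the labels used here.

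The rest of the series held the same genotypes on a diet without vitamin A, at PN21 and at birth (PN0), and R-Cyp1b1-null mice, a substrain of the nulls resistant to obesity from diet. On the deficient diet there were 2 null PN21 arrays (pools of 2 mice) and 3 wild-type PN21 arrays (2, 2 and 1 mice). Newborn livers were pooled by litter, with no sex given and 2 arrays a group. These groups are used below only to place the weaning values.

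Cyp1b1 is a cytochrome P450 that oxidises oestradiol, retinoids, fatty acids and aryl hydrocarbons, and it is found mainly in mesenchymal cells, with little in hepatocytes. Weaning is the time when mouse liver changes over from fat-rich milk to carbohydrate-rich chow: lipogenic enzymes come up, while fetal genes such as Afp, H19 and Igf2 are shut down in the weeks after birth. Sterol and fatty acid synthesis are driven by the SREBP transcription factors, and iron entry into the blood is held back by the liver hormone hepcidin.

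Signals are given as levels, meaning log2 units above or below the array's own 75th percentile, and a difference is the null mean minus the wild-type mean, with its standard error (SE) from the limma fit. The 3 wild-type arrays counted as 1 sample, so the spread behind each SE came from all 10 groups of the series, and p-values are from that fit after Benjamini-Hochberg adjustment over 20528 genes. Because the wild-type group is 1 pool, its spread between mice was not measured: the arrays of this RNA differed by a median SD of 0.52, and the 2 null pools by 0.14.

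Both null arrays, and both null arrays of the deficient diet, lay on 1 slide of their own, scanned on another day, whereas the wild-type arrays lay on 3 other slides. Genotype and slide therefore cannot be told apart. The null arrays reached further down: the lowest signal that passed as well above background stood at -5.44 and -5.67 on the null arrays and at -4.05, -3.63 and -2.71 on the wild-type arrays. In the dimmest eighth of genes the median difference was -1.68, while in the brightest eighth it was 0.063. A lower value of a dim gene in null liver thus moved with this step in background, and its part in the result was not tested. Of the genes tested, 13029 were well above background on all 5 arrays, and their median difference was -0.04. Elsewhere in the series 2 arrays, R-Cyp1b1-null sufficient array 3 and wild-type deficient array 3, correlated poorly with the rest (median r of 0.542 and 0.784, against 0.899 or more). Neither is part of the comparison, but both feed the shared spread, and results are also given from a fit without them.

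With all groups in the fit, 4 genes passed an adjusted p of 0.05, which is 0.0195% of those tested. Igf2 was higher in null liver (1 gene, 0.00487%), and Chrna4, Ifi202b and Lvrn were lower (0.0146%). By sign alone 38.8% of genes were higher and 61.2% lower. Before adjustment, of 2474 genes at p under 0.05 (12.1%), 78 genes were higher (0.38%) and 2396 were lower (11.7%). Without the 2 poorly correlating arrays 2686 genes passed (13.1%), of which 79 were higher (0.385%) and 2607 were lower (12.7%). Most of those lower calls were dim, since among the 13029 genes well above background throughout there were 58 higher (0.445%) and 336 lower (2.58%). The genes described below are therefore mainly bright ones, for which both groups gave a measured signal.

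**Figure D1:**
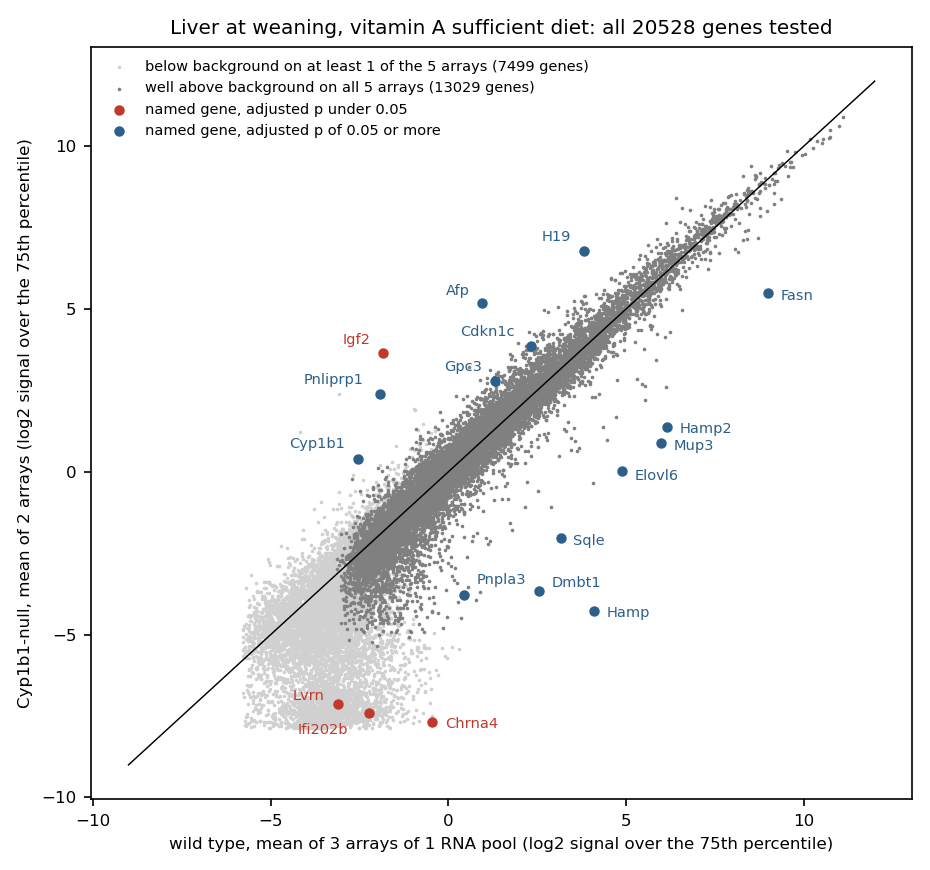
Mean level of every gene tested in Cyp1b1-null liver (vertical axis, 2 arrays) against wild-type liver (horizontal axis, 3 arrays of 1 pool), as log2 signal over the 75th percentile. Dark grey genes were well above background on all 5 arrays, and the named genes stand off the diagonal: Igf2, Afp, H19 and Pnliprp1 above it, and Hamp, Sqle, Elovl6, Pnpla3 and Chrna4 below it.

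The targeted gene gave no check of the labels. Cyp1b1 was read by 2 probes, which went opposite ways. The brighter probe (mm9 chr17:80106547-80106606) gave 0.38 and 0.42 on the null arrays, against -2.45, -2.46 and -2.72 on the wild-type arrays. The other (mm9 chr17:80100918-80100977) gave -4.54 and -4.69 on the null arrays, against -1.05, -2.25 and -3.72 on the wild-type arrays. The first difference was 2.95 ± 0.93 with an adjusted p of 0.111 (0.00725 without the 2 poorly correlating arrays), and the second was -2.28. Since the deleted part is not known here, neither probe shows whether the enzyme's message was lost. Nnt, the mitochondrial transhydrogenase that C57Bl/6J mice lack in functional form, was level between the groups, with a difference of -0.06 ± 1.03.

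Igf2, Afp and H19, which are high in fetal liver, stood higher in weaning null liver, whereas the fetal list as a whole was split. Igf2, the imprinted insulin-like growth factor that drives fetal growth, had levels of 3.72 and 3.59 on the null arrays, against -2.31, -2.06 and -1.12 on the wild-type arrays. The groups were far apart, and the null pools lay within 0.13 of each other. Igf2 rose by 5.48 ± 0.72 (44.8-fold, adjusted p = 0.0103). The difference was 4.39 to 5.84 over all other settings tried, and the adjusted p was 0.139 with quantile normalization, 0.0578 with the mean of probes, 0.185 with the weaning groups only and 0.132 and 0.127 without either null array. Its second probe gave 1.44 and 1.47 in null liver, against -2.76, -3.40 and -4.41 in wild type, where it was well above background on 1 of the 3 arrays.

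H19 is the non-coding RNA that neighbours Igf2 and is expressed from the other parental allele. Its level was 6.86 and 6.71 in null liver, against 3.89, 4.22 and 3.32 in wild type. Both H19 probes separated the groups, by 2.97 ± 1.65 and by 3.29, but in the fit of all groups the adjusted p was 0.602, and it was 0.00499 without the 2 poorly correlating arrays. Afp, the albumin-like protein of fetal serum, had 5.55 and 4.80 in null liver, against 0.59, 0.96 and 1.30 in wild type. That is a difference of 4.23 ± 1.06 (18.7-fold), just short of the threshold with an adjusted p of 0.0564, and 0.00014 in the smaller fit.

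The other imprinted and fetal genes moved less. Cdkn1c, an imprinted inhibitor of cyclin-dependent kinases, had 3.86 and 3.86 in null liver, against 2.04, 2.43 and 2.54 in wild type. Gpc3, a cell-surface glypican of fetal liver, had 2.96 and 2.62 in null liver, against 1.03, 1.35 and 1.56 in wild type. Grb10, an imprinted adaptor that dampens insulin and IGF signalling, had 1.83 and 2.04 in null liver, against 0.93, 1.22 and 0.64 in wild type. None of these passed with all groups in the fit (adjusted p of 0.511 to 0.991), and all 3 passed without the poorly correlating arrays (0.00817 to 0.0276). Mest and Peg3 were higher by 0.95 and 0.93 with no overlap of the arrays and passed neither fit. Plagl1, a factor that acts upstream of several imprinted genes, differed by 0.26, and Igf2r, the imprinted receptor that clears Igf2, by -0.33, both with overlapping arrays. Dlk1, an imprinted gene of hepatoblasts, was read by 2 probes that differ. On the brighter one it was at -2.54 and -3.48 in null liver and not well above background on any wild-type array. On the other the groups overlapped, with -3.57 and -4.35 in null liver, against -3.26, -4.93 and -4.72 in wild type.

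The fetal list had no common direction. Of its 34 measured members 18 were higher and 16 lower, with a median of 0.15, against -0.18 for all genes, and the median was 0.66 over the 24 that were well above background on all 5 arrays. The sign of the list's median turned with the setting, to -0.281 with the mean of probes, -0.092 without the filter on dim probes and -0.045 with the replicate block. Over all genes, the arrays of the groups did not overlap for 44.4%. In this list they did not overlap for 14 higher members (11.9% of all genes) and 11 lower ones (32.5%). Without the 2 poorly correlating arrays 6 members were called higher (0.385% of all genes) and 4 lower (12.7% of all genes, which is near the share of the list). Of the lower ones Hba-x, Lin28b and Igf2bp1 were not well above background on either null array. Tff3, a secreted trefoil peptide, was bright: 0.91 and 1.88 in null liver, against 3.75, 4.20 and 5.12 in wild type. Krt19, a keratin of bile ducts and of fetal liver, was at -0.43 and -0.53 in null liver, against 1.46, 1.53 and 0.61 in wild type.

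The growth hormone and IGF list, apart from Igf2, was near level. Of its 26 measured members 15 were higher and 11 lower, and Igf2 was the single call in either fit. Igf1, the postnatal growth factor that the liver secretes, stood at 7.32 and 7.32 in null liver, against 6.50, 6.88 and 7.62 in wild type. Ghr, the growth hormone receptor, differed by 0.36 ± 1.08. Igfbp2, a binding protein that is high in fetal liver, was at 7.60 and 7.67 in null liver, against 6.22, 6.60 and 5.58 in wild type, and did not pass (adjusted p = 1 in the fit of all groups and 0.0563 without the 2 arrays).

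Over members well above background on all 5 arrays, cholesterol synthesis had the lowest median difference of the 32 lists. The pathway builds sterols from acetyl-CoA through mevalonate and squalene, and its genes are switched on together by SREBP2 when cell sterols are low. Of 32 measured members 26 were lower in null liver and 6 higher, with a median of -1.23, and 31 of the 32 were well above background on all 5 arrays. Arrays did not overlap for 23 lower members, against 32.5% of all genes, or 21.6% of the genes well above background throughout. They did not overlap for 5 higher members, against 11.9% and 14.7% in the same order. In the fit of all groups limma called none of them. An unadjusted p under 0.05 was found for 7, all lower (21.9%, against 11.7% of all genes). Without the 2 poorly correlating arrays 10 were called lower and none higher, where the background among genes of that brightness was 2.58% lower.

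Sqle, squalene epoxidase, which makes the first oxygenated sterol precursor, showed the widest gap. Its level was -2.45 and -1.64 on the null arrays, against 2.85, 3.24 and 3.40 on the wild-type arrays. The difference was -5.21 ± 1.52 (37.0-fold lower), with an adjusted p of 0.0865 in the fit of all groups and 0.00342 without the 2 arrays. Idi1, the isomerase of isopentenyl diphosphate, had 0.61 and 1.33 in null liver, against 4.17, 4.49 and 4.73 in wild type. Cyp51, the lanosterol demethylase, had -2.15 and -1.88 in null liver, against 0.79, 1.09 and 1.29 in wild type, and all 3 of its probes separated the groups.

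The pathway was lower from its early to its late steps. On the mevalonate arm Mvd, the decarboxylase of mevalonate diphosphate, differed by -3.24 ± 1.38, and Pmvk, phosphomevalonate kinase, by -1.91 ± 1.44. On the sterol arm the differences were -3.58 ± 1.25 for Nsdhl and -2.89 ± 1.42 for Msmo1, which remove methyl groups from lanosterol, -2.16 ± 0.75 for Lss, which closes the sterol rings, and -2.48 ± 1.44 for Dhcr7, which makes cholesterol in the last step. All 6 passed without the 2 poorly correlating arrays (adjusted p of 0.0103 to 0.0471) and none with them. Ebp, a late enzyme of the same arm, was bright and differed by -0.43 with overlapping arrays, so the enzymes were not lowered alike.

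Hmgcs1, the cytosolic HMG-CoA synthase that starts the pathway, is shown with its promoter because it holds both motifs looked for. Its level was 4.15 and 4.43 in null liver, against 5.88, 6.23 and 6.64 in wild type, a difference of -1.95 ± 1.54 that passed in neither fit. The 250 bases before its RefSeq start, on the plus strand of GRCm38.p6 at chr13:119690101-119690350, are printed with a match to TCACNCCAC, the letters of a known sterol regulatory element, and the 3 copies of CCAAT (read here on the reverse strand as ATTGG) in capitals.
Hmgcs1 promoter: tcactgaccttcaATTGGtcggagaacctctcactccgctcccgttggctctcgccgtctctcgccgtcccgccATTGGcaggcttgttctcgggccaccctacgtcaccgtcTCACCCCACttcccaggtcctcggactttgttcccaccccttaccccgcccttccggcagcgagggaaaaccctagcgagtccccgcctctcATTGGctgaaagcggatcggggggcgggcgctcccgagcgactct
TCACNCCAC lay at -137 to -129 from the start and occurs, on either strand, in 1.05% of 32851 mouse promoters of this length. Hmgcs1 was the only one of the 22 cholesterol genes with a promoter in the table to hold it. CCAAT, the box bound by NF-Y, occurs in promoters of 37.5% of genes, and 18 of the 22 had it. A match is a description of letters and does not show binding.

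Regulators and exporters of sterols differed less than most of the enzymes. Srebf2, which encodes SREBP2, had 3.50 and 3.52 in null liver, against 3.67, 3.98 and 4.77 in wild type, a difference of -0.63 ± 0.92. Insig1, which keeps the SREBP precursors in the endoplasmic reticulum and is itself an SREBP target, had 0.20 and 0.77 in null liver, against 2.12, 2.36 and 2.53 in wild type (adjusted p = 0.446). Higher in null liver were Mylip, an LXR target that encodes a ubiquitin ligase, by 1.28 ± 1.33, and Abcg5, a subunit of the sterol exporter into bile, by 1.04 ± 1.18. Neither passed, although the arrays of both genes did not overlap.

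Fatty acid and triglyceride synthesis was lower too, with the widest gaps at its enzymes. These genes turn citrate into malonyl-CoA, palmitate and then longer and desaturated chains, under SREBP1c and ChREBP. Of 44 measured members 34 were lower and 10 higher, with a median of -1.02, and arrays did not overlap for 25 lower members (32.5% of all genes) and 4 higher ones (11.9% of all genes). With all groups in the fit limma called none, and 7 had an unadjusted p under 0.05, all lower, a share near the 11.7% of all genes. Without the 2 poorly correlating arrays 12 were called lower and none higher. All 12 were well above background on all 5 arrays, where 2.58% of genes were called lower.

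Elovl6, which elongates palmitate to stearate, had 0.03 and -0.01 in null liver, against 4.42, 4.81 and 5.43 in wild type. The difference was -4.87 ± 1.40 (29.3-fold lower), with an adjusted p of 0.0819 in the fit of all groups and 0.000488 without the 2 arrays. Fasn, fatty acid synthase, had 5.43 and 5.53 in null liver, against 8.47, 8.99 and 9.53 in wild type, and its second probe was lower by 4.32. Scd1, the stearoyl-CoA desaturase, had 2.50 and 2.71 in null liver, against 5.90, 6.30 and 6.16 in wild type. In each of these genes the 2 null pools lay close together and well below every array of the wild-type pool.

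Enzymes that supply acetyl-CoA and malonyl-CoA were lower as well. Acly, ATP-citrate lyase, differed by -3.04 ± 1.07, Acss2, which makes acetyl-CoA from acetate, by -2.98 ± 1.25, Acaca, acetyl-CoA carboxylase, by -1.87 ± 1.04 and Acacb, its mitochondrial counterpart, by -3.97 ± 1.32. Aacs, which activates ketone bodies for lipid synthesis, differed by -4.40 ± 1.55. Pnpla3, a lipid-droplet hydrolase known as an SREBP1c target, had -4.004 and -3.54 in null liver, against 0.65, 0.17 and 0.53 in wild type, and at -4.22 ± 0.85 it came closest to the threshold in the list (adjusted p = 0.0552). These 6 genes, with Elovl6, Fasn, Scd1, Pgd, Tkt and Mlxipl, are the 12 that passed without the 2 arrays.

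Regulators and lipid storage genes differed by less. Srebf1 had 6.74 and 6.96 in null liver, against 6.61, 6.98 and 7.53 in wild type. The probe does not separate its 2 known transcripts as far as the files say. Mlxipl, which encodes ChREBP, had 4.36 and 4.39 in null liver, against 5.34, 5.73 and 6.02 in wild type. Nr1h3, which encodes LXR-alpha, differed by 0.19, Dgat2, the main triglyceride-forming acyltransferase, by 0.04 and Plin2, a lipid-droplet coat protein, by 0.07, all with overlapping arrays. Ppp1r3g, which directs protein phosphatase to glycogen after feeding, was at -1.54 and -1.63 in null liver, against 1.15, 1.52 and 2.54 in wild type (adjusted p = 0.0871).

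**Figure D2:**
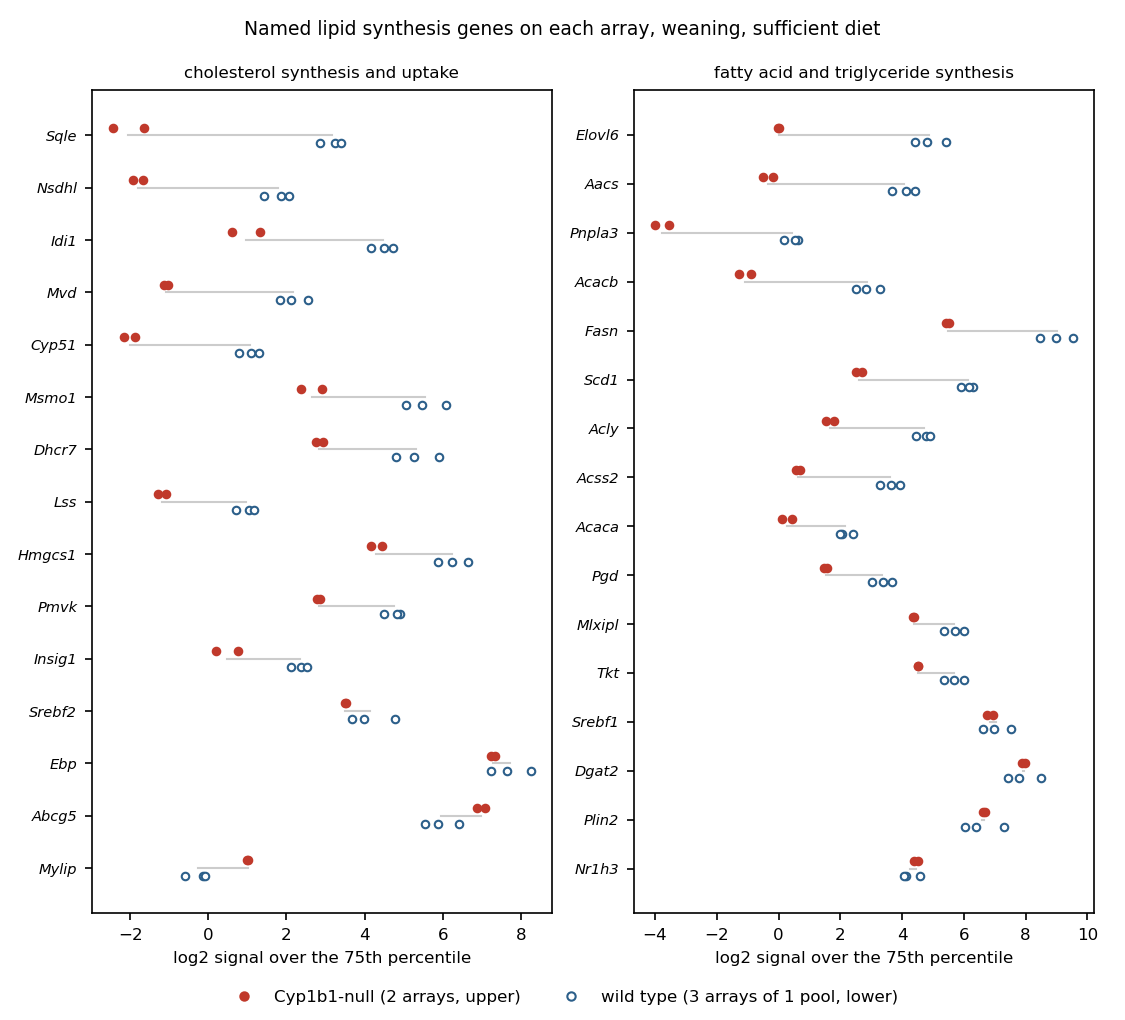
Level on every array of the 15 genes of the cholesterol list and the 16 of the fatty acid and triglyceride list that the text names, as log2 signal over the 75th percentile. Filled points are the 2 Cyp1b1-null arrays and open points the 3 arrays of the wild-type pool, and the null points lie left of all wild-type points for 12 genes of each list.

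Genes of fat burning and respiration leaned the other way by small amounts. Of 42 measured targets of PPAR-alpha, the receptor that turns on fatty acid oxidation, 35 were higher, with a median of 0.34, and limma called none, with none at an unadjusted p under 0.05 either. Of 38 oxidative phosphorylation genes 35 were higher, also with a median of 0.34, and none passed before or after adjustment. These small shifts rested on single arrays: without wild-type array 1 the medians were 0.103 for PPAR-alpha targets and 0.114 for oxidative phosphorylation, where 23 of 38 were then higher. With the replicate block the oxidative phosphorylation median was -0.011. Single genes spread more than this. Cpt1a, the entry enzyme of mitochondrial oxidation and an example picked after its values were seen, had 5.23 and 5.27 in null liver, against 4.21, 4.56 and 5.33 in wild type. Of the hepatocyte markers 13 of 18 were higher, with a median of 0.40, but with the replicate block 5 of 18 were higher and the median was -0.182. All 18 were well above background on all 5 arrays, as the label liver requires.

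Both hepcidin genes were far lower in null liver, and Hamp gave the largest difference among the 13029 genes well above background on all 5 arrays. Hepcidin is the peptide by which the liver removes the iron exporter ferroportin from the gut and from macrophages, and mice have a second, neighbouring copy, Hamp2. Hamp had -3.89 and -4.65 in null liver, against 3.32, 3.73 and 5.23 in wild type. Hamp2 had 1.71 and 1.07 in null liver, against 5.59, 5.91 and 6.96 in wild type. Both null pools lay far below all wild-type arrays at both genes, and the signal was well above background everywhere. The difference was -8.36 ± 2.05 for Hamp (adjusted p = 0.0552) and -4.76 ± 1.79 for Hamp2 (adjusted p = 0.202), and without the 2 poorly correlating arrays the adjusted p was 0.00666 and 0.0194.

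The copies are alike in sequence, so their probes are shown to let the readings be told apart. Over the 53 coding bases that end at the stop codon, read from the probes (mm9 minus strand, chr7:31727496-31727548 for Hamp and chr7:31707527-31707579 for Hamp2), 11 bases differ, given in capitals.
Hamp probe: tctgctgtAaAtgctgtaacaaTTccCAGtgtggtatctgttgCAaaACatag
Hamp2 probe: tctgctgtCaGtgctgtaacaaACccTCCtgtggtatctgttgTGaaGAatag
Over this stretch 79.2% of bases are the same, so some cross-hybridisation between the copies cannot be told apart from their own signal.

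Their promoters were compared because the genes differed together. The 250 bases before each RefSeq start (GRCm38.p6 minus strand, chr7:30944030-30944279 for Hamp and chr7:30924182-30924431 for Hamp2) were searched on both strands for TTCTTGGAA, the letters of the STAT element through which interleukin-6 raises hepcidin, and for GGCGCC, those of the BMP-responsive element, and matches are in capitals.
Hamp promoter: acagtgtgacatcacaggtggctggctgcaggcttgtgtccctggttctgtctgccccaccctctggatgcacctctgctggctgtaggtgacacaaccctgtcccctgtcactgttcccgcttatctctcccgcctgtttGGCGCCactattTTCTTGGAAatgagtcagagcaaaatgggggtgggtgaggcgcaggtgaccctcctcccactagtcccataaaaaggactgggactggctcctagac
Hamp2 promoter: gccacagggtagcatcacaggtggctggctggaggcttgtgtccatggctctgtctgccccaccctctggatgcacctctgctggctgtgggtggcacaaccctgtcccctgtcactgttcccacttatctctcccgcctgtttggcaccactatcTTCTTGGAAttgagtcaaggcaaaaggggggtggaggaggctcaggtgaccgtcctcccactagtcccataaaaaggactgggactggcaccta
Aligned, they share 227 of 247 bases (91.9%). TTCTTGGAA lay at -97 to -89 in Hamp and at -94 to -86 in Hamp2, and 0.365% of 32851 promoters hold it. GGCGCC lay at -109 to -104 in Hamp and was not found in the Hamp2 window, and 9.59% of promoters hold it.

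The rest of the iron list was close to level by its median, while single genes differed more. Of 31 measured members 23 were higher and 8 lower, with a median of 0.12. Over the settings that median ran from -0.185 to 0.203. Hjv had the highest difference of the list (1.55), with 0.63 and 0.88 in null liver, against 0.37, 0.59 and -3.34 in wild type. Ftl1 differed by 0.94, with 6.50 and 6.56 in null liver, against 6.48, 6.82 and 3.45 in wild type. For both genes wild-type array 3 stood apart from the other wild-type arrays, and Hjv was not well above background on it. Arrays did not overlap for 6 higher members (11.9% of all genes) and 4 lower ones (32.5% of all genes). Hamp and Hamp2 were the 2 calls without the poorly correlating arrays, a share of the list below that of all genes called lower (12.7%). Both were among the 28 members well above background on all 5 arrays, and 2.58% of all such genes were called lower. Id1 and Smad7, which rise with Hamp when BMP signals, differed by -0.62 ± 1.03 and 0.45 ± 0.54. Id1 had -1.25 and -1.18 in null liver, against -0.96, -0.86 and 0.06 in wild type, and its second probe did not overlap either. Among the sensors of transferrin iron, Tfr2 differed by 0.02, Hfe by -0.03 and Tmprss6, the protease that restrains hepcidin, by 0.02, all with overlapping arrays. Fth1, a ferritin subunit, differed by -0.02, and Slc40a1, which encodes ferroportin, by 0.14. Tfrc, the transferrin receptor that rises when cells lack iron, had 1.59 and 1.81 in null liver, against 0.32, 0.61 and 0.11 in wild type, a difference of 1.35 ± 0.83 that did not pass (adjusted p = 0.715). Of 29 acute-phase genes 19 were higher and 10 lower, with a median of 0.09. Saa1, an interleukin-6 target picked after its value was seen, differed by 0.34 ± 0.68.

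Retinoid genes, the pathway closest to the study's diet, showed no broad shift on the sufficient diet. Of 23 measured members 13 were higher and 10 lower, with a median of 0.16, and none passed with all groups in the fit, while 3 had an unadjusted p under 0.05, all lower, about the share among all genes (11.7%). Cyp26a1, the retinoic acid hydroxylase that retinoic acid itself induces, had -3.78 and -3.64 in null liver, against -1.65, -1.41 and -1.87 in wild type (difference -2.07 ± 0.88, adjusted p = 0.308). Rdh11, a retinal reductase that is also an SREBP target, had 0.89 and 1.21 in null liver, against 3.08, 3.43 and 3.89 in wild type. Lrat, which esterifies retinol for storage in stellate cells, went the other way, with 0.67 and 0.90 in null liver, against -0.51, -0.31 and -0.15 in wild type. Without the 2 poorly correlating arrays Cyp26a1, Rdh11 and the dim genes Rarg and Crabp1 were called lower (4 of 23, against 12.7% of all genes). Of the 19 members well above background on all 5 arrays 2 were called lower, against 2.58% of all such genes. Rbp4, the plasma carrier of retinol, differed by -0.24 and Stra6, its receptor, by 0.07.

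The 3 genes called lower were all dark in null liver. Chrna4, a subunit of the neuronal nicotinic acetylcholine receptor, read -7.56 and -7.78 on the null arrays, not well above background, against -0.46, -0.35 and -0.54 on the wild-type arrays. It was called lower with an adjusted p of 0.0103. With the null arrays set at the lowest signal that passed as well above background on each, it was 34.3-fold lower. This is not a strict bound, since some probes above that signal were themselves not well above background. A second, dimmer Chrna4 probe was also lower, but it failed the filter on dim probes. It was not well above background on either null array or on wild-type array 3. Ifi202b, an interferon-inducible DNA-binding protein of the p200 family, read -7.57 and -7.26 in null liver, not well above background, against -2.08, -2.40 and -2.20 in wild type (adjusted p = 0.0103). By the same measure it was 10.03-fold lower. Lvrn, an aminopeptidase, read -6.75 and -7.54 in null liver, against -2.51, -2.38 and -4.39 in wild type, where it was well above background on 2 arrays (adjusted p = 0.0497). All 3 calls depended on the background correction. With normexp and quantile normalization the differences were -1.96 for Chrna4, -0.76 for Ifi202b and -0.14 for Lvrn, and none passed, nor did any pass with quantile normalization alone, with the weaning groups only or without either null array.

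Several further genes with large differences were dim in the same way. Il25, 4930555G01Rik, Pou3f2, 1700041B01Rik, Prss42 and 2210418O10Rik were not well above background on either null array, each with an adjusted p of 0.0552. By the measure used for Chrna4 they were 15.1-fold to 35.4-fold lower. With normexp and quantile normalization the differences shrank to between -2.02 and -1.17 log2 units, smaller than these folds. Their wild-type arrays, which carry the same RNA, differed among themselves by 1.93 to 3.34. All 6 were also lower on the deficient diet, where they passed and where 18.2% of all genes were called lower. Dmbt1, a scavenger-receptor glycoprotein of epithelia, was measured in both groups: -3.54 and -3.77 in null liver, against 2.44, 2.70 and 2.53 in wild type (-6.21 ± 1.23, adjusted p = 0.0552). The renin genes Ren1 and Ren2, singled out after their values were seen, were lower by 3.57 and 4.41, but these near-identical copies are not told apart by such probes.

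Higher in null liver beside the fetal genes were few bright genes. Pnliprp1, a lipase-like protein of the exocrine pancreas, had 2.48 and 2.28 in null liver, against -1.87, -1.90 and -2.00 in wild type (4.30 ± 1.09, adjusted p = 0.0582). Of 20 measured pancreas markers 9 were higher and 11 lower, but 13 of the 20 were below background on at least 1 of the 5 arrays. Among the 7 well above background on all 5, 5 were higher, with a median of 0.22. With normexp or quantile normalization 13 of the 20 were higher. Amy2a5, Ctrb1, Cela3b and Cela2a, all digestive enzymes or their precursors and named after their values were seen, were higher by 1.51, 1.54, 1.11 and 0.76 with no overlap of the arrays, and Ctrl and Cela1 differed by -1.34 and -1.10. The log2 sum of the pancreas markers, Pnliprp1 among them, was 4.21 and 4.08 on the null arrays, against 3.17, 2.78 and 2.81 on the wild-type arrays, and their part in the Pnliprp1 result was not tested. Wif1, a secreted Wnt inhibitor, was at -0.91 and -1.37 in null liver and well above background on 1 of 3 wild-type arrays. Rspry1 and Gm10237 also met the selection, but for each 1 wild-type array stood apart (-6.02 and -2.56) from the other two.

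Several granulocyte genes were higher, unevenly between the null pools. S100a9, a subunit of the calprotectin complex of neutrophils, had 5.02 and 3.59 in null liver, against 1.93, 2.15 and 2.72 in wild type. S100a8, its partner, had 2.56 and 1.09 in null liver, against -0.68, -0.40 and 0.39 in wild type. Lcn2, a siderophore-binding protein of neutrophils that is also an acute-phase gene, had -1.25 and -1.50 in null liver, against -2.56, -3.20 and -4.72 in wild type. Of 15 measured neutrophil markers 10 were higher and 5 lower, 5 of them higher at an unadjusted p under 0.05 (0.38% of all genes). Below background on at least 1 of the 5 arrays were 10 of the 15, and the other 5 were all higher. The list median of 0.41 rested largely on null array 1. It was 0.064 without that array, with 8 of 15 higher, and 1.27 without null array 2, with 11 higher. Without the 2 arrays 4 were called higher (0.385% of all genes) and Cxcr2, a chemokine receptor named after its value was seen, was called lower (12.7% of all genes). The log2 of their summed signal was 5.52 and 4.11 on the null arrays, against 3.16, 2.90 and 3.31 on the wild-type arrays. Gp9, a platelet glycoprotein, was at -0.73 and -1.53 in null liver, against -3.58, -2.95 and -2.89 in wild type. Elane and Fcnb, markers of granulocyte precursors, were not well above background on any wild-type array. In bulk liver more cells of a type and more RNA per cell cannot be told apart.

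Muscle and kidney markers were mostly dim, with 4 of 20 and 3 of 7 well above background on all 5 arrays. Skeletal muscle markers were lower in 19 of 20, and 11 of the 20 were not well above background on either null array. Kidney markers were lower in 6 of 7, with Kap, Nphs1 and Slc12a1 not above background in null liver. Cholangiocyte markers were lower in 10 of 13. Liver endothelial markers were higher in 17 of 18 by a median of 0.37, and erythroid markers were lower in 13 of 18. The erythroid direction turned with the scaling, since 12 of 18 were higher with quantile normalization (median 0.268) and 11 of 18 with normexp and quantile normalization. The log2 sum of the erythroid markers was 10.1 and 9.56 on the null arrays, against 8.94, 9.33 and 9.53 on the wild-type arrays, and the part of these cells in the fetal-gene result was not tested.

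The hour of sampling is not stated. Clock genes were split by sign, with 11 higher, 12 lower and a median of -0.03. With all groups in the fit limma called none of the 23. An unadjusted p under 0.05 was found for 4, all lower (11.7% of all genes). Arrays did not overlap for 10 lower members (32.5% of all genes) and 4 higher ones (11.9% of all genes). Among the 19 well above background on all 5 arrays, 8 lower and 3 higher did not overlap, against 21.6% and 14.7% of such genes. Dbp, a clock output factor, had 3.01 and 3.89 in null liver, against 5.42, 5.73 and 6.39 in wild type. Per2, a core clock repressor, had -1.96 and -1.89 in null liver, against -0.76, -0.51 and -0.69 in wild type, and Ciart was not above background in null liver. Without the 2 poorly correlating arrays Per2, Ciart and Bhlhe41 were called lower, 3 of 23 clock genes, about the share among all genes (12.7%). Of the 19 clock genes well above background on all 5 arrays 2 were called lower, against 2.58% of all such genes. Mup3, a major urinary protein whose adult form is male-biased and whose probes may take in near-identical copies, had 0.80 and 0.95 in null liver, against 5.47, 5.87 and 6.63 in wild type (adjusted p = 0.0783). Of 20 male-biased liver genes 13 were lower, and of 27 female-biased ones 15 were higher. Kdm5d, a Y-linked gene, did not separate the weaning groups, with a difference of -0.10 ± 0.49.

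**Figure D3:**
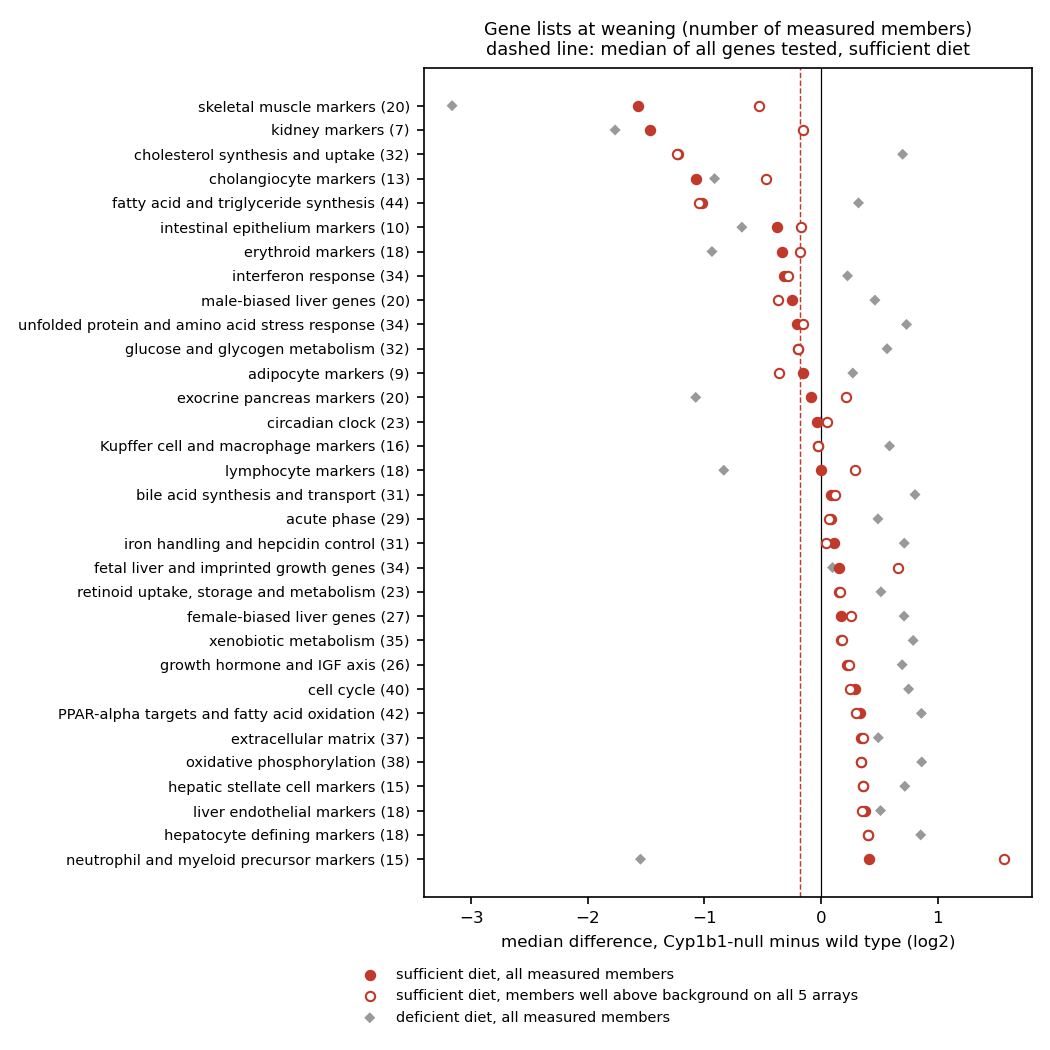
Median difference of each gene list, Cyp1b1-null minus wild type in log2, on the sufficient diet over all measured members (filled circles) and over members well above background on all 5 arrays (open circles), with the deficient diet as diamonds. Cholesterol synthesis (-1.23) and fatty acid synthesis (-1.02) keep their place when dim members are left out, whereas muscle, kidney and cholangiocyte markers come closer to 0.

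On the diet without vitamin A most lists of bright genes were shifted up in null liver, cholesterol synthesis among them. Oxidative phosphorylation had a median of 0.86 with 38 of 38 higher, hepatocyte markers also 0.86, and iron genes 0.71 with 29 of 31 higher. The wild-type deficient group holds a poorly correlating array. Cholesterol synthesis was higher in null liver on that diet in 31 of 32 members, with a median of 0.70, although none was called. The deficient comparison called 18.6% of all genes. Sqle had 2.83 and 2.89 in null liver, against 1.98, 2.47 and 0.51 in wild type. As a list the cholesterol genes had a median level of 2.14 and 2.57 on the 2 null sufficient arrays, 3.54 to 3.89 on the wild-type sufficient arrays, 3.76 and 3.84 on the null deficient arrays and 1.52 to 3.47 on the wild-type deficient arrays, the lowest being the poorly correlating one. The 2 null sufficient pools thus lay below all arrays of the null deficient and wild-type sufficient groups.

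Fatty acid genes were lower in both deficient groups than in the wild-type sufficient group. Their median level was 1.49 and 1.44 on the null sufficient arrays, against 3.27 to 3.85 on the wild-type sufficient arrays, and it was 2.04 and 2.17 on the null deficient arrays, against 1.13 to 2.28 on the wild-type deficient arrays. Fasn differed by -3.52 ± 1.72 between the genotypes on the sufficient diet and by -0.0047 ± 1.29 on the deficient diet. Pnpla3 was lower in null liver on both diets (-2.56 ± 0.63 on the deficient one, adjusted p = 0.00828).

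Hepcidin went opposite ways. On the deficient diet Hamp had 0.27 and -0.71 in null liver, against -4.10, -4.98 and -5.50 in wild type. The rise was fitted at 4.64 ± 1.53 (adjusted p = 0.0445, where 0.356% of all genes were called higher). All 3 wild-type readings lay under the lowest signal well above background on their arrays (-3.81, -3.14 and -3.57). The third is the poorly correlating array. The sizes of this rise and of the Hamp difference between diets are therefore not measurements. Hamp2 had 3.22 and 3.41 in null liver, against 1.33, 0.23 and -1.29 in wild type. The difference between the diets was fitted at -13.0 ± 2.56 for Hamp and -7.99 ± 2.23 for Hamp2, with unadjusted p of 0.000113 and 0.00252. After adjustment over all genes neither passed (0.989 for both).

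Only Ifi202b passed the test of the difference between diets (0.00487% of genes). It was not well above background in null liver on the sufficient diet, and read -0.82 and -1.29 in null liver on the deficient diet, against -2.98, -3.51 and -1.64 in wild type. Readings under the lowest signal well above background on their array were also raised to it. The genotype effect on the sufficient diet minus that on the deficient diet was then -4.86 log2 units, which is not a strict bound. The fitted adjusted p of 0.0152 uses the readings as they were before raising, and the call was lost with normexp, with quantile normalization, with the weaning groups only and without either null array. In R-Cyp1b1-null liver on the sufficient diet it read -0.38, -1.23 and -0.43. Its level on the 2 null sufficient arrays was below that of every other weaning array named here.

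The age test passed for Igf2 and Kdm5d (0.00974% of genes). In newborn liver Igf2 had 7.64 and 7.80 on the null arrays, against 9.01 and 8.48 on the wild-type arrays, so the genotypes were in the opposite order to weaning. The difference between the ages was 6.51 ± 0.92 (adjusted p = 0.0289). Afp was likewise high at birth in both genotypes (9.50 and 9.26 in null liver, against 10.1 and 10.2 in wild type), and its difference between ages of 5.02 ± 1.36 did not pass. Igf2 in weaning null liver on the deficient diet was uneven, with -1.48 and 0.99, against -1.21, -1.64 and -1.48 in wild type. The weaning null sufficient level of Igf2 thus lay between those of the newborn arrays and of the other weaning arrays.

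The obesity-resistant substrain shared its wild-type control arrays with this comparison, so its values are given side by side without a test of likeness. On the sufficient diet Igf2 had -1.72, -1.98 and -1.99 in R-Cyp1b1-null liver, and Elovl6 had 4.95, 4.56 and -0.01, the last on the poorly correlating array. Sqle had 1.79, 3.23 and -1.71 in the same order. Leaving that array aside, Igf2, Sqle and Elovl6 in the substrain stood nearer to the wild-type values than to the null values. Hamp, with 1.64, 1.69 and -2.80, stood between the null and wild-type arrays.

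**Figure D4:**
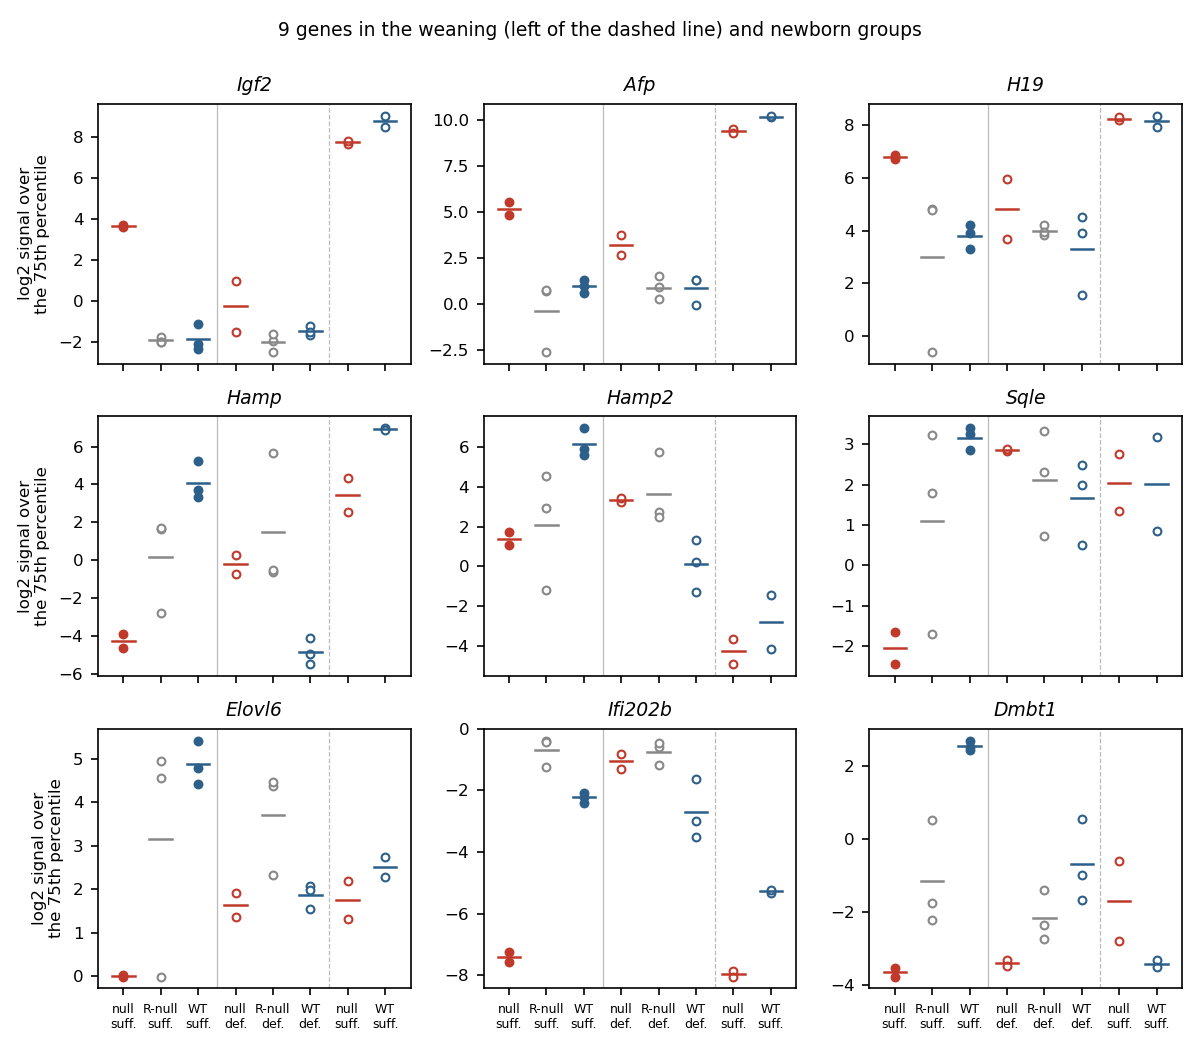
Level of 9 genes on each array of the 6 weaning groups (left of the dashed line) and 2 newborn groups, as log2 signal over the 75th percentile. Filled points mark the 2 groups compared here, and Igf2 is seen to be high in the null sufficient group among the weaning groups, while Hamp is low in null liver on the sufficient diet and in wild type on the deficient diet.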

How the data were processed

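Liver RNA was read on 24 one-colour Cy3 arrays. Intensities were extracted with Agilent Feature Extraction 10.7.3.1, per the file headers, and the deposited processed signal is background-subtracted. The submitters' processing notes also name limma. Here log2 of the processed signal, as deposited by the authors, was set against each array's 75th percentile, spots of a probe were averaged, and control and outlier spots were left out. A probe was used if all arrays of 1 or more groups read it well above background, and the brightest probe stood for a gene. The 3 arrays of the wild-type sufficient pool were averaged into 1 sample, and limma 3.58.1 (R 4.3.3) fitted 22 samples in 10 groups, with Benjamini-Hochberg adjustment over all genes at 0.05. For a gene not well above background in null liver, the fold was taken from the lowest signal well above background on those arrays, which is not a strict bound. The fit was also run on simulated data with independent noise and large added shifts. That run held no slide effect, background step or shared pool, so it does not check for them.

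The p-values measure the spread between pools and arrays, and the spread between mice of the wild-type pool is not in them. Members and the 32 lists were chosen with earlier results of these data known. Named genes were up to 12 calls in each direction, the 8 largest rises and falls among uncalled genes with an unadjusted p under 0.01 and arrays that did not overlap, up to 4 members of each list by unadjusted p, the members of 6 lists (retinoid, iron, cholesterol, fatty acid, fetal and growth hormone), Cyp1b1, Nnt and calls in the tests of diet and age. Alternatives were the background correction, normalization, dim-probe filter, probe choice, series table, groups in the fit, slide and replicate blocks, pool arrays as replicates and left-out arrays. Promoters came from a RefSeq table of GRCm38.p6. Some genes of the lists are counted but not reported here by name.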

Additional observations from a re-analysis of the deposited data

Results flagged for a closer look

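The genotype effect of 3 genes differed between diets or ages by the test of the difference itself. For Ifi202b, the effect on the sufficient diet minus that on the deficient diet was fitted at -6.84 (limma, adjusted p = 0.0152). Both null sufficient arrays were not well above background, so this size is not a measurement. With such arrays raised to their lowest signal well above background it was -4.86. For Igf2, the effect at weaning minus that at birth was 6.51 ± 0.92 (limma, adjusted p = 0.0289). For Kdm5d, a Y-linked gene, the same age difference was fitted at 5.10 (limma, adjusted p = 0.00956). The newborn null arrays read below their lowest signal well above background, and with them raised to it the difference was 3.31. Kdm5d had -2.07 and -1.80 in weaning null liver, against -2.01, -2.13 and -1.37 in weaning wild type, and -7.51 and -7.75 in newborn null liver, against -2.25 and -2.62 in newborn wild type. Newborn arrays are of pooled litters with no sex given in the labels, while all weaning arrays are of males. The newborn null arrays read Kdm5d far below the other arrays named here, and the part of litter sex in the age comparison of Igf2 was not tested.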

How the results depend on the processing

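The number of calls between null and wild type at weaning (4) depended on the setting. It was 1 with normexp and quantile normalization (Igf2; 414 genes unadjusted), 0 with quantile normalization alone (955 unadjusted) and 0 with the weaning groups only (2102 unadjusted). It was 2686 without the 2 poorly correlating arrays, 1639 with slide as a random block, 2023 with the pool arrays as 3 replicates and 1 (Igf2) over genes well above background on all 5 arrays, a setting chosen after seeing the data. Leaving out 1 array gave 0 to 1025 calls: 0 without either null array, and 513 and 1025 without wild-type array 2 or 3. With the replicate block it was 1886, but null and wild-type arrays of a number lay on different slides, and the numbers were not taken as pairs. The correlations of their deviations (0.144 and 0.157) cannot settle this, since the deviations of 2 null arrays from their mean mirror each other. For the diet difference (1 call) the count was 0 with normexp, 0 with quantile normalization and 0 with the weaning groups only, and 0 to 1 with an array left out. For the age difference (2 calls) it was 0 with normexp and with quantile normalization, 1 without the dim-probe filter, 1 with the mean of probes, 28 without the 2 arrays, 99 with the replicate block, and 0 to 2 with an array left out. Of 624 values of 40 genes under these alternatives, 449 kept their direction and side of the threshold, 147 newly passed it and 23 no longer did. The other 5 reversed, all of Kdm5d (-0.0993): 0.26 with normexp, 0.30 with quantile normalization, 0.051 with the replicate block and -0.25 to 0.13 with an array left out. These 40 genes were chosen mainly by the size or p of this same difference, so a kept sign was likely beforehand. The median difference of all genes (-0.182) was 0.003 with normexp and 0.036 with quantile normalization, where 50.4% and 52.5% of genes were higher. List medians ranged over the settings between -1.56 and -1.18 for cholesterol genes and between -1.27 and -0.71 for fatty acid genes. They ranged between -0.28 and 0.66 for fetal genes and between -0.185 and 0.203 for iron genes. For fetal and iron genes the sign therefore depended on the setting. The causes were not tested. Dim genes are limited by the unequal background of the arrays.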
